A study of Rattus norvegicus with 8 samples.

Results

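The ligands of the platelet-derived growth factor (PDGF) and vascular endothelial growth factor (VEGF) families and the PDGF receptors were measured as the transcripts of 10 genes among the 31699 genes and loci of the deposited table. They are the receptors Pdgfra and Pdgfrb, the PDGF ligands Pdgfa, Pdgfb, Pdgfc and Pdgfd, and the VEGF ligands Vegfa, Vegfb, Vegfc and Vegfd, each found by its gene symbol. The 10 genes were chosen on results of the same contrast between the groups, in which Vegfd and Pdgfra were already known to be lower, so their differences are given as a description and without a test. AFCs from the annulus fibrosus of Sprague Dawley rats, pooled from 8 animals per isolation and used at the third passage, were infected with lentivirus at a multiplicity of infection of 20 for 24 h. The Lv-Ctrl group received the vector pLVX-shRNA-Puro, and the Lv-Piezo1 group received pLVX-shRNA-Puro-Piezo1, which is labelled a Piezo1 knock down and carries a short hairpin RNA against the mechanically gated cation channel Piezo1. Both groups were then exposed to cyclic mechanical stretch (CMS) at 20% elongation and 0.5 Hz for 36 h, and RNA of 4 samples per group was sequenced to ask how depletion of Piezo1 changes gene expression in stretched AFCs. All 8 samples were infected and stretched, so neither an effect of the virus nor one of CMS can be read from them. The values are TPM, a measure of transcript abundance. They are scaled to transcript length and to the same total in each sample, and the depth behind them is unknown.

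PDGF ligands are dimeric growth factors for mesenchymal cells and act through the receptor tyrosine kinases Pdgfra and Pdgfrb. VEGF ligands act mainly on endothelial cells through the related kinases Flt1, Kdr and Flt4, with neuropilins as co-receptors. The intervertebral disc is largely free of vessels, and VEGF is studied there mostly in connection with the ingrowth of vessels and with low oxygen.

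Genes with a mean of at least 1 TPM over the 8 samples were compared on the log2(TPM + 1) scale with limma, and a gene was called at a Benjamini-Hochberg adjusted p below 0.05 over all 13103 tested genes together with a log2 fold change of at least 1 in size. Means are given ± SD over the 4 samples of a group (n = 4 each), with the Lv-Ctrl group first where both follow each other, and log2 fold changes ± their standard error (SE). The transcript of Piezo1 itself went against the label. It lay between 26.7 and 33.0 TPM in the Lv-Ctrl group and between 37.7 and 41.4 TPM in the group labelled Lv-Piezo1, with a log2 fold change of 0.38 ± 0.06 and a limma adjusted p = 8.6e-04. It was thus higher in 4 of 4 samples labelled Lv-Piezo1, and short of the fold change threshold. After median-ratio scaling of the samples the log2 fold change was 0.22. The study states that the effect of the hairpin was checked and that apoptosis was lower with it, by assays that are not in this table. By such assays it also reports lower calpain activity and less Bax and cleaved-Caspase3 protein. From the RNA sequencing it reports an association of the hairpin with lower calcium signaling. No value here marks the vector a sample received, so whether the labels are exchanged was not tested. With exchanged labels every direction given here would turn. For that reason the group is named by its label alone. Piezo2, the related channel, averaged 0.413 ± 0.142 and 0.0625 ± 0.0050 TPM, below the level at which genes were tested. Of 12 annulus fibrosus genes, 9 were tested. Col1a1, the chain of the main fibrillar collagen and the most abundant of the 12, averaged 3282 ± 137 and 5835 ± 103 TPM, the proteoglycan core protein Acan 31.6 ± 2.95 and 47.1 ± 1.82 TPM and the tendon and annulus transcription factor Scx 30.1 ± 5.05 and 56.8 ± 10.5 TPM. Others of the list lay the other way, with the transcription factor Mkx at 25.4 ± 2.89 and 14.6 ± 1.41 TPM and the small proteoglycan Fmod at 68.4 ± 4.45 and 34.0 ± 1.4 TPM. The log2 fold change of Fmod, -0.99, passed the threshold at -1.15 with median-ratio scaling, -1.09 with quantile normalization, -1.01 with a pseudocount of 0.1, and -1.02 to -1.01 without Lv-Ctrl replicate 3 or 4 or replicate 4 labelled Lv-Piezo1. Acan, Scx, Mkx and Fmod were chosen after their values were seen. Col2a1 was near 0 in both groups, at 0.47 ± 0.0804 TPM and 0.428 ± 0.155 TPM, and Tnmd was listed at 0 in the Lv-Ctrl group and at 0.020 ± 0.040 TPM in the other. Among the Lv-Ctrl samples, replicate 3 had the lowest value for 7 of the 9 tested PDGF and VEGF genes and for 48.8% of all tested genes. Without it the log2 fold change was -1.43 for Pdgfra, 1.02 for Vegfa and -2.64 for Vegfd.

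Of the 10 PDGF and VEGF genes, 9 reached the mean of 1 TPM and Pdgfb did not. As a description, since these genes were chosen on this contrast, Vegfa lay past both limits of the call on the higher side in the samples labelled Lv-Piezo1, Pdgfra and Vegfd on the lower side, and 6 of the 9 did not. Nothing about the family is read from that count. Across all tested genes 7.67% were called, 4.91% higher and 2.76% lower. The balance depends on the scaling, since 64.1% of the called genes were higher here, 52.3% with median-ratio scaling and 48.8% with quantile normalization. The groups did not overlap for 8 of the 9 genes, 4 higher and 4 lower, beside 54.2% of all tested genes. The 9 genes had a median log2 fold change of -0.26. All tested genes together had a median of 0.14, which median-ratio scaling brought to -0.0046, so small differences depend on the scaling. Among the 13103 tested genes Vegfd had the 35th lowest log2 fold change, Pdgfra the 236th lowest and Vegfa the 580th highest.

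Pdgfra (ENSRNOG00000002244), the receptor that binds PDGF-AA and PDGF-CC and marks many mesenchymal progenitor cells, was less abundant in the samples labelled Lv-Piezo1. Lv-Ctrl replicates 1 to 4 had 205, 209.6, 167 and 194 TPM and a mean of 194 ± 18.9 TPM. Replicates 1 to 4 labelled Lv-Piezo1 had 73.4, 69.4, 75.6 and 81.0 TPM and a mean of 74.8 ± 4.85 TPM. Even the lowest Lv-Ctrl sample, replicate 3, lay far above the highest sample of the other group. The mean was 2.59 times lower. In RNA from whole cultures, fewer cells of a type and less RNA per cell cannot be told apart. Pdgfrb, the receptor that binds PDGF-BB and PDGF-DD and is needed for the recruitment of mural cells to vessels, measured 111, 109, 101 and 104 TPM in the Lv-Ctrl replicates and 116, 116, 119 and 121 TPM in those labelled Lv-Piezo1. These values lay close together in both groups, and the groups did not overlap on the deposited scale, but the log2 fold change of 0.15 ± 0.04 was close to the median of all tested genes and turned to -0.01 after median-ratio scaling. The receptors together went from 300.3 ± 23.1 to 193 ± 6.99 TPM.

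Among the PDGF ligands, Pdgfa, which forms PDGF-AA, was the most abundant in every sample. Pdgfa measured 115, 118, 119 and 119 TPM in Lv-Ctrl replicates 1 to 4 and 175, 165, 165 and 167 TPM in replicates 1 to 4 labelled Lv-Piezo1. The replicates of each group lay within a narrow band and the bands were well apart, with a log2 fold change of 0.51 ± 0.03, or 0.35 after median-ratio scaling, below the fold change threshold. Pdgfc, a ligand secreted in a latent form that proteases activate, measured 16.7, 16.4, 12.7 and 14.0 TPM in the Lv-Ctrl replicates. It measured 8.67, 8.31, 7.8 and 9.79 TPM in those labelled Lv-Piezo1. All 4 of these lay below the Lv-Ctrl values, among which replicates 1 and 2 were the highest, and the log2 fold change was -0.72 ± 0.10, or -0.87 after median-ratio scaling. Pdgfd, the other latent ligand, lay between 1.95 and 2.73 TPM in the Lv-Ctrl group and between 1.24 and 1.75 TPM in the other, a log2 fold change of -0.50 ± 0.12, or -0.60 after median-ratio scaling. The gap between the groups of Pdgfd was small beside the spread within each. Pdgfb, the ligand that endothelial cells and platelets release, was listed at 0 in every sample but replicate 1 labelled Lv-Piezo1, where it was listed at 0.05 TPM.

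Among the VEGF ligands, Vegfd (ENSRNOG00000003587), a ligand of Flt4 known for lymphatic vessel growth, had the most negative log2 fold change of the 9 tested genes. It measured 19.9, 20.3, 17.2 and 19.4 TPM in Lv-Ctrl replicates 1 to 4 and 2.4, 2.46, 2.28 and 2.23 TPM in replicates 1 to 4 labelled Lv-Piezo1. The latter differed by little and none of them came near the lowest Lv-Ctrl value, again that of replicate 3. The mean went from 19.2 ± 1.39 TPM to 2.34 ± 0.106 TPM, 8.21 times lower. Vegfa (ENSRNOG00000019598), the main angiogenic ligand, which binds Flt1 and Kdr, measured 66.7, 64.0, 49.4 and 62.8 TPM in the Lv-Ctrl replicates and 135, 126, 131 and 137 TPM in those labelled Lv-Piezo1. All 4 of the latter lay above the Lv-Ctrl samples by more than the range of either group, and Lv-Ctrl replicate 3 was the lowest. The mean went from 60.7 ± 7.74 TPM to 132 ± 4.59 TPM, 2.18 times higher. The log2 fold change of Vegfa was 1.12 ± 0.09, and 0.96 after median-ratio scaling, below the fold change threshold. Vegfb, a ligand of Flt1 alone among the kinases, lay between 24.4 and 27.4 TPM in the Lv-Ctrl group and between 34.0 and 38.6 TPM in the other, a log2 fold change of 0.48 ± 0.05, or 0.33 after median-ratio scaling. Vegfc, the other ligand of Flt4, measured 9.49, 9.52, 8.29 and 9.04 TPM in the Lv-Ctrl replicates and 7.57, 8.44, 6.73 and 7.0 TPM in those labelled Lv-Piezo1. The groups overlapped for Vegfc alone among the 9 tested genes, since replicate 2 labelled Lv-Piezo1 lay above Lv-Ctrl replicate 3, and its log2 fold change was -0.26 ± 0.08, or -0.40 with median-ratio scaling and -0.45 with quantile normalization.

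**Figure D1:**
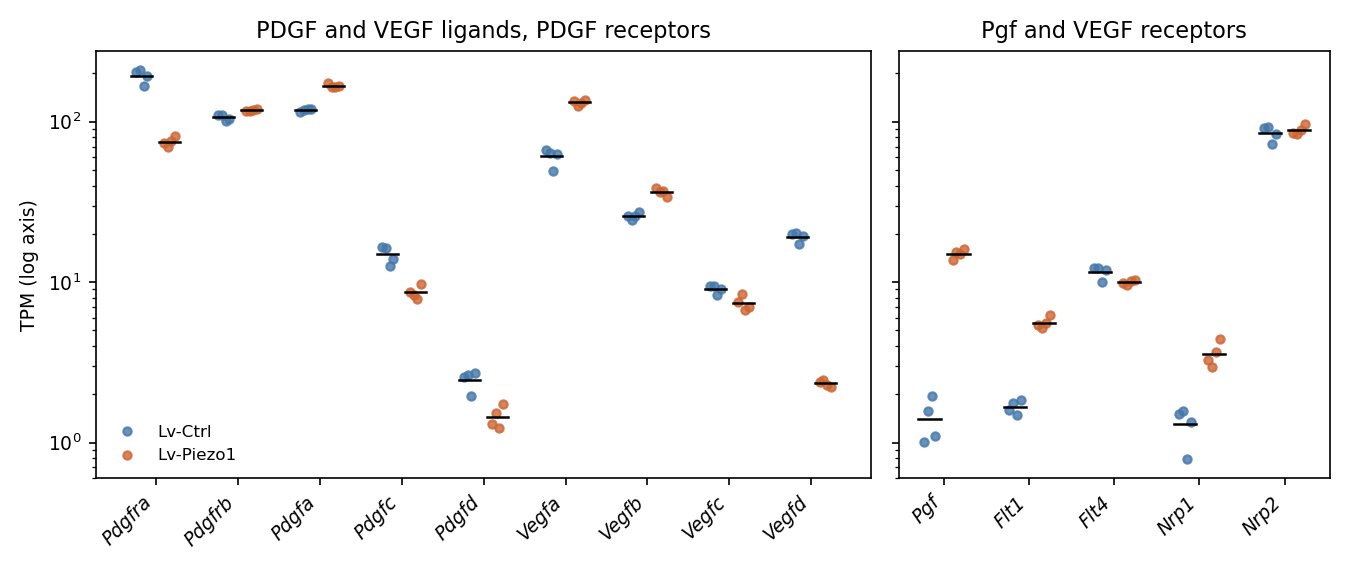
TPM on a log axis in the 4 Lv-Ctrl samples (blue) and the 4 samples labelled Lv-Piezo1 (orange) for the tested PDGF and VEGF genes and for Pgf and the tested VEGF receptors and co-receptors, with 1 point per sample and a line at the group mean. Vegfd lies near 19.2 TPM in the blue group and near 2.34 TPM in the orange group, and Pgf lies near 1.41 and 15.0 TPM.

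Because TPM is scaled to transcript length, levels can be set side by side between genes. In the Lv-Ctrl group the order from high to low was Pdgfra, Pdgfa, Pdgfrb, Vegfa, Vegfb, Vegfd, Pdgfc, Vegfc, Pdgfd and Pdgfb, and no neighbours in that order overlapped in their samples. In the samples labelled Lv-Piezo1 it was Pdgfa, Vegfa, Pdgfrb, Pdgfra, Vegfb, Pdgfc, Vegfc, Vegfd, Pdgfd and Pdgfb, in which Pdgfc and Vegfc alone overlapped. Pdgfra thus went from the first place to the fourth, and Vegfd from the sixth to the eighth.

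The make-up of each family can be given as the share of a gene in the TPM of its family, a measure that a scaling factor for the whole sample does not touch. Pdgfra made up 64.9, 65.7, 62.3 and 65.1% of the PDGF receptor TPM in Lv-Ctrl replicates 1 to 4 and 38.8, 37.4, 38.9 and 40.2% in replicates 1 to 4 labelled Lv-Piezo1. It was the more abundant receptor in every Lv-Ctrl sample and the less abundant one in every sample labelled Lv-Piezo1, with means of 64.5% ± 1.5 and 38.8% ± 1.13. Pdgfa held 87.1% ± 1.57 of the PDGF ligand TPM in the Lv-Ctrl group and 94.3% ± 0.55 in the other, and Pdgfc 11.0% ± 1.4 and 4.85% ± 0.433. Vegfd made up 16.4, 17.2, 17.1 and 16.4% of the VEGF ligand TPM in the Lv-Ctrl replicates and 1.31, 1.42, 1.29 and 1.24% in those labelled Lv-Piezo1. Its share was thus nearly constant within each group and far apart between them. Vegfa held 52.7% ± 2.53 of the VEGF ligand TPM in the Lv-Ctrl group and 74.1% ± 1.39 in the samples labelled Lv-Piezo1, while Vegfc held 7.92% ± 0.277 and 4.17% ± 0.484. For Vegfb the shares overlapped, at 22.6% ± 2.24 and 20.5% ± 1.06. The summed VEGF ligand TPM went from 115 ± 9.64 to 178 ± 4.05, and the summed PDGF ligand TPM from 135 ± 1.51 to 178 ± 5.23.

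**Figure D2:**
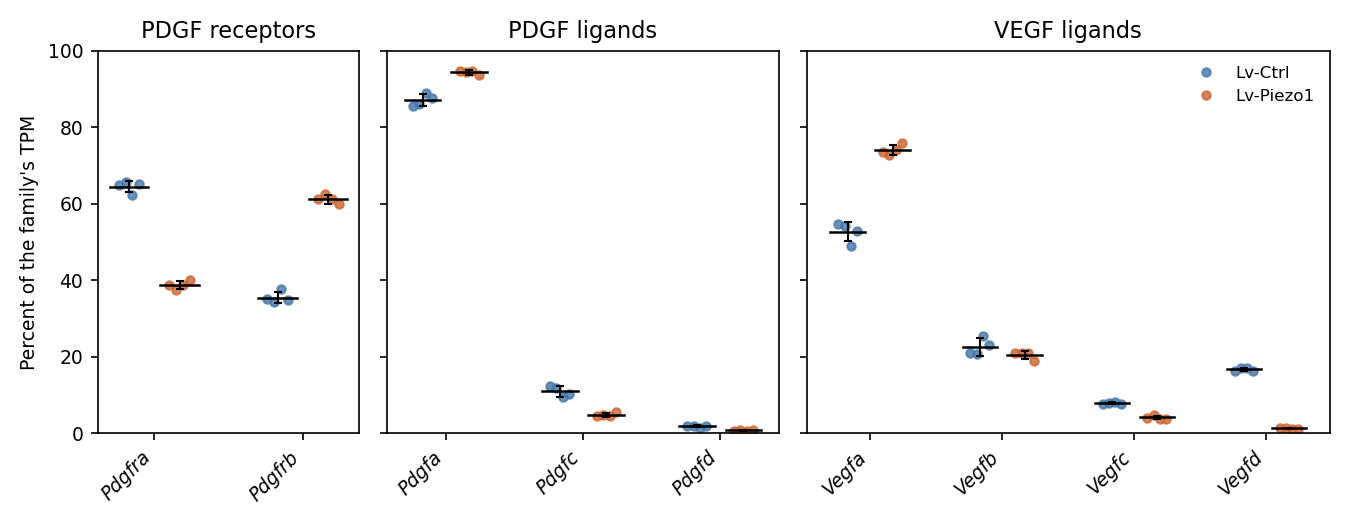
Share of each gene in the summed TPM of the PDGF receptors, the PDGF ligands and the VEGF ligands, in percent, with 1 point per sample, Lv-Ctrl in blue and samples labelled Lv-Piezo1 in orange, a line at the mean and bars of 1 SD. Pdgfra goes from 64.5% to 38.8% of the receptor TPM and Vegfd from 16.8% to 1.31% of the VEGF ligand TPM, while the shares of Vegfb overlap.

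The VEGF receptors, their co-receptors and Pgf were not among the 10 genes, and 5 of these 6 were tested. Pgf and Flt1 were called higher, none was called lower, and the median log2 fold change was 0.99, beside 0.14 for all tested genes. The counts of called genes in this and the following lists stand beside 4.91% higher and 2.76% lower among all tested genes. Pgf, placental growth factor, a VEGF relative that binds Flt1, measured 1.01, 1.57, 1.94 and 1.1 TPM in Lv-Ctrl replicates 1 to 4 and 13.7, 15.3, 15.0 and 16.1 TPM in replicates 1 to 4 labelled Lv-Piezo1. It was low in every Lv-Ctrl sample and higher in 4 of 4 samples of the other group, with a log2 fold change of 2.75 ± 0.12 and a limma adjusted p = 1.9e-07. Counted with the VEGF ligands, Pgf made up 1.24% ± 0.486 of their TPM in the Lv-Ctrl group and 7.76% ± 0.569 in the samples labelled Lv-Piezo1. Flt1, the receptor for Vegfa, Vegfb and Pgf, measured 1.59, 1.76, 1.49 and 1.84 TPM in the Lv-Ctrl replicates and 5.38, 5.17, 5.57 and 6.23 TPM in those labelled Lv-Piezo1. The groups were well apart, with a log2 fold change of 1.30 ± 0.08 and a limma adjusted p = 1.9e-06. The co-receptor Nrp1 measured 1.51, 1.58, 0.79 and 1.34 TPM and 3.29, 2.95, 3.68 and 4.39 TPM in the same order, with a log2 fold change of 0.99 ± 0.15 and a limma adjusted p = 3.7e-04. It lay just short of the fold change threshold and passed it at 1.42 with a pseudocount of 0.1, and at 1.01 to 1.06 without Lv-Ctrl replicate 1, 2 or 4 or replicate 1 or 2 labelled Lv-Piezo1. It was smaller at 0.77 with quantile normalization, 0.89 with median-ratio scaling and 0.88 without Lv-Ctrl replicate 3. Nrp2, by far the most abundant of the 6, overlapped between the groups at 85.1 ± 8.84 TPM and 88.4 ± 6.05 TPM, and its log2 fold change of 0.06 changed sign with median-ratio scaling, with quantile normalization and without Lv-Ctrl replicate 3. Flt4, the receptor for Vegfc and Vegfd, averaged 11.6 ± 1.03 and 9.97 ± 0.344 TPM, with overlapping groups, a log2 fold change of -0.20 and adjusted p = 0.03 from limma. Its log2 fold change was -0.35 with median-ratio scaling and -0.38 with quantile normalization. Kdr, the main signaling receptor of endothelial cells, was near 0 in both groups, at 0.0025 ± 0.0050 TPM and 0.0675 ± 0.0457 TPM.

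Of 11 proteases and partners that process PDGF and VEGF ligands, 10 were tested, 1 was called higher and 0 lower, with a median log2 fold change of 0.33. Pcsk6, a proprotein convertase, rose from 3.82 ± 0.317 TPM in the Lv-Ctrl group to 12.0 ± 0.618 TPM in the group labelled Lv-Piezo1, with a log2 fold change of 1.43 ± 0.07 and a limma adjusted p = 2.6e-07, higher in 4 of 4 samples. Ctsd and Plat, the latter known to activate PDGF-CC, were the most abundant, at 942 ± 25.7 TPM and 478 ± 28.9 TPM in the Lv-Ctrl group and 760.0 ± 12.9 TPM and 538 ± 17.9 TPM in the other, and neither was called. Ccbe1, which assists the maturation of Vegfc and was chosen after its values were seen, averaged 44.8 ± 5.99 and 22.8 ± 1.82 TPM, with a log2 fold change of -0.94 that fell short of the threshold. It passed at -1.10 with median-ratio scaling, -1.07 with quantile normalization and -1.04 without Lv-Ctrl replicate 3. Pcsk5, another convertase chosen in the same way, averaged 1.47 ± 0.147 and 3.69 ± 0.253 TPM, with a log2 fold change of 0.92 that passed at 1.27 with a pseudocount of 0.1. The log2 fold change of Pcsk5 was smaller at 0.81 with median-ratio scaling and 0.69 with quantile normalization.

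Of 10 extracellular proteins that bind PDGF or VEGF ligands, 8 were tested, 2 were called higher and 1 lower, with a median log2 fold change of -0.21. Ccn2, a matricellular protein that binds Vegfa, rose from 1444 ± 87.2 TPM in the Lv-Ctrl group to 4611 ± 95.2 TPM in the group labelled Lv-Piezo1, with a log2 fold change of 1.68 ± 0.04 and a limma adjusted p = 7.3e-09. Fn1, fibronectin, rose from 1939.7 ± 242 to 4908 ± 297 TPM, with a log2 fold change of 1.35 ± 0.09 and a limma adjusted p = 2.0e-06. Dcn, decorin, a small proteoglycan of the collagen matrix, fell from 1456 ± 69.3 to 519 ± 14.9 TPM, with a log2 fold change of -1.49 ± 0.04 and a limma adjusted p = 7.9e-09. For each of these 3 genes the groups did not overlap, in the stated direction. The same holds for each gene said here to be higher in 4 of 4 samples, and for 54.2% of all tested genes. Sparc, which binds PDGF, and Thbs2 were the most abundant and were not called, at 10855 ± 508 TPM and 7865 ± 801 TPM in the Lv-Ctrl group and 9272 ± 253 TPM and 5303 ± 264 TPM in the samples labelled Lv-Piezo1. The log2 fold change of Sparc was -0.23, or -0.39 with median-ratio scaling and 0.0 with quantile normalization. That of Thbs2 was -0.56, or -0.73 and -0.27 in the same order. Quantile normalization gives a gene its value by its rank within a sample. A gene that keeps its rank in every sample thus gets a difference of 0, and nothing is read from the 0.0 of Sparc.

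Downstream of the receptors, 33 of 35 adaptors, kinases and transcription factors that relay the signal were tested with limma, and 0 were called, with a median log2 fold change of 0.11. An unadjusted p below 0.05 was reached by 16 of the 33 (48.5%) and an adjusted p below 0.05 by 14 (42.4%), all short of the fold change threshold, beside 62.3% and 58.2% of all tested genes. The most abundant were the kinases Mapk3, at 181 ± 2.67 TPM and 195 ± 4.62 TPM, and Akt1, at 152 ± 8.41 TPM and 164 ± 3.53 TPM. The small differences of both changed sign after median-ratio scaling. Of 20 genes that restrain receptor signaling, all 20 were tested, 0 were called higher and 1 lower, with a median of 0.11. That gene was Spry1, a feedback inhibitor of receptor tyrosine kinases, and it was the most abundant of the 20 in the Lv-Ctrl group but not in the other. Spry1 measured 194, 195, 178 and 178 TPM in the Lv-Ctrl replicates and 41.8, 43.4, 42.2 and 44.4 TPM in those labelled Lv-Piezo1, with a log2 fold change of -2.09 ± 0.04 and a limma adjusted p = 1.5e-09. The samples of each group lay close together and the groups were far apart. Errfi1, the most abundant in the samples labelled Lv-Piezo1, overlapped between the groups at 99.0 ± 8.09 TPM and 105 ± 5.25 TPM, and its sign changed after median-ratio scaling. Dusp4, a phosphatase of MAP kinases chosen after its values were seen, averaged 4.08 ± 0.507 and 1.59 ± 0.16 TPM, with a log2 fold change of -0.97 short of the threshold. It passed at -1.08 with median-ratio scaling, -1.20 with quantile normalization, -1.30 with a pseudocount of 0.1, and -1.01 without Lv-Ctrl replicate 3 or 4.

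Growth factor receptors induce immediate early genes. Of 16 such genes, 14 were tested, 1 was called higher and 0 lower, with a median log2 fold change of -0.09. Egr2 rose from 1.53 ± 0.12 to 4.54 ± 0.0907 TPM, with a log2 fold change of 1.13 ± 0.08 and a limma adjusted p = 2.3e-06, higher in 4 of 4 samples, at 0.91 not called after quantile normalization and at 1.52 with a pseudocount of 0.1. By the mean over all 8 samples the most abundant were Ier3, at 927 ± 38.5 TPM and 1293 ± 6.45 TPM, and Egr1, at 194 ± 16.5 TPM and 128 ± 5.37 TPM. Egr1 was lower in every sample labelled Lv-Piezo1, with a log2 fold change of -0.60 that did not reach the threshold, and in those samples it averaged less than Junb, which was chosen after its values were seen and averaged 132 ± 11.5 and 133 ± 4.57 TPM.

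Vegfa is a known target of the hypoxia-inducible factors. Of 18 genes of oxygen sensing and of the response to low oxygen, 17 were tested, 3 were called higher and 0 lower, with a median log2 fold change of 0.32. Egln3, an oxygen-dependent prolyl hydroxylase, measured 1.22, 1.22, 1.67 and 1.6 TPM in the Lv-Ctrl replicates and 14.4, 15.0, 15.9 and 15.4 TPM in those labelled Lv-Piezo1, with a log2 fold change of 2.74 ± 0.08 and a limma adjusted p = 1.5e-08. Epas1, which encodes the factor HIF-2 alpha, measured 7.0, 7.06, 5.15 and 5.73 TPM and 31.2, 30.0, 31.3 and 34.2 TPM in the same order, with a log2 fold change of 2.18 ± 0.09 and a limma adjusted p = 1.3e-07. Both were low in all Lv-Ctrl samples and higher in 4 of 4 samples of the other group. P4ha1, a collagen prolyl hydroxylase, rose from 132 ± 10.5 to 290.5 ± 16.6 TPM. Its log2 fold change was 1.14 ± 0.06, with a limma adjusted p = 6.6e-07. It was higher in 4 of 4 samples, and at 0.97 it was not called after median-ratio scaling. Adm, adrenomedullin, the most abundant of the 18, averaged 1596 ± 49.8 and 853 ± 33.0 TPM, with a log2 fold change of -0.90 that passed the threshold at -1.07 after median-ratio scaling and was -0.82 with quantile normalization. Ldha, the next in abundance, averaged 779.9 ± 17.2 and 834 ± 10.1 TPM, a difference whose sign changed after median-ratio scaling. Hif1a, chosen after its values were seen, averaged 70.9 ± 8.29 and 140.4 ± 13.6 TPM, with a log2 fold change of 0.98 just short of the threshold. It passed, at 1.00 to 1.02, without Lv-Ctrl replicate 1, 2 or 4 or replicate 1 or 2 labelled Lv-Piezo1, and was 0.82 after median-ratio scaling. Over all 7 of these groups of genes together, 107 genes were tested, 9 were called higher and 2 lower, with a median of 0.13. Across all tested genes 4.91% were called higher and 2.76% lower, with a median of 0.14, and nothing is read from the pooled count.

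Markers of vessel-associated and other cell types were read beside these results. Of 12 endothelial markers, 11 were found and 2 were tested, and Emcn and Sox17 were listed at 0 in every sample and Cdh5 at 0.015 ± 0.030 TPM in the group labelled Lv-Piezo1 and 0 in the Lv-Ctrl group. Pecam1 and Vwf were low but above 0 in every sample. Pecam1 averaged 0.098 ± 0.041 and 0.15 ± 0.059 TPM, and Vwf 0.365 ± 0.081 and 0.21 ± 0.075 TPM. The list summed to 25.5, 29.7, 34.2 and 31.7 TPM in Lv-Ctrl replicates 1 to 4 and 36.6, 38.1, 33.9 and 39.0 TPM in replicates 1 to 4 labelled Lv-Piezo1, most of it Egfl7, at 29.5 ± 3.76 TPM and 30.7 ± 2.16 TPM. Esam went from 0.203 ± 0.114 to 5.68 ± 0.893 TPM, so it reached the mean of 1 TPM through the group where it was higher, and no p is given. Its log2 fold change was 2.47 ± 0.12, and 4.32 with a pseudocount of 0.1. Of 13 markers of mural cells, the pericytes and smooth muscle cells around vessels, 12 were found and 10 were tested, 6 were called higher (Acta2, Myh11, Cnn1, Tagln, Mcam and Des) and Kcnj8 and Abcc9 were called lower, with a median log2 fold change of 2.32. The list summed to 797, 784, 764 and 771 TPM in the Lv-Ctrl replicates and 4629, 4703, 4698 and 4535 TPM in those labelled Lv-Piezo1, with Kcnj8 the most abundant in the former and Tagln in the latter, and the pericyte marker Rgs5 was near 0 at 0.163 ± 0.118 TPM and 0.258 ± 0.0885 TPM. Of 12 fibroblast markers, 10 were tested, Mfap5 was called higher and Dcn and Fbln1 lower, with a median of 0.20. Their sum was 9835, 9972, 9006 and 9593 TPM in the Lv-Ctrl replicates and 12824, 12558, 12869 and 13292 TPM in those labelled Lv-Piezo1, with Col1a1 the most abundant. Dcn stands also among the ligand-binding proteins, Col1a1 among the annulus fibrosus genes and Des among the muscle markers. The part of the mural and fibroblast markers in the differences of Pdgfra, Vegfa, Vegfd and Pgf was not tested.

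The genes whose pattern over the 8 samples was most like that of Pdgfra, Vegfa or Vegfd were sought among 9053 other genes, by the root mean square difference of log2(TPM + 1) centred on each gene's mean. For Pdgfra they were Cd55 (0.027), Gja1 (0.028) and Grem1 (0.042). Cd55, a regulator of complement, averaged 2782 ± 254 and 1109 ± 62.0 TPM, Gja1, the gap junction protein connexin 43, 737 ± 83.2 and 288 ± 17.6 TPM and Grem1, a secreted antagonist of bone morphogenetic proteins, 1742 ± 155 and 644 ± 44.3 TPM. For Vegfa they were Sema7a (0.036), Gch1 (0.048) and Adamts10 (0.050), and Sema7a averaged 14.0 ± 1.48 and 31.0 ± 0.677 TPM. For Vegfd they were Cpxm2 (0.058), Vps52 (0.087) and Mest (0.10), and Cpxm2 averaged 17.7 ± 0.73 and 2.23 ± 0.0933 TPM. With little spread within groups, this measure mostly finds genes with a like log2 fold change. It was -1.32 for Cd55 beside -1.36 for Pdgfra, 1.10 for Sema7a beside 1.12 for Vegfa, and -2.54 for Cpxm2 beside -2.60 for Vegfd. Shared regulation was not tested.

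The promoters of Vegfa, Pdgfra and Vegfd are shown because these genes lay on opposite sides, with Vegfa higher and Pdgfra and Vegfd lower. RefSeq promoters of build GRCr8, 250 bases before to 50 after the start of a gene, were found for 9 of the 10 genes, and Pdgfrb had no entry. That of Pdgfra lies at chr14:33408467-33408766 on the minus strand with 48.0% G and C, that of Vegfd at chrX:33739843-33740142 on the minus strand with 40.7%, and the upstream one of Vegfa at chr9:22452604-22452903 on the plus strand with 63.3%, beside a median of 51.7% over 33469 promoters. On both strands the GC box GGGCGG (in 33.1% of those promoters), the core of the hypoxia response element ACGTG (19.3%), the AP-1 site TGANTCA (7.33%), the TATA box TATAAA (14.2%) and the CArG box (1.64%) were sought. Capitals mark the matches, which do not overlap, with positions counted from 1 at the 5′ end. Vegfa had GC boxes at 167, 178 and 193, Pdgfra an AP-1 match at 216 and Vegfd a TATA match at 145. The AP-1 match has A at the open letter N, and the TATA match lies well before the start of the gene. These are matches of letters, and whether they act as sites was not tested. ACGTG and the CArG box were not in these windows, and the downstream promoter of Vegfa at chr9:22460028-22460327 held none of the motifs.
Vegfa: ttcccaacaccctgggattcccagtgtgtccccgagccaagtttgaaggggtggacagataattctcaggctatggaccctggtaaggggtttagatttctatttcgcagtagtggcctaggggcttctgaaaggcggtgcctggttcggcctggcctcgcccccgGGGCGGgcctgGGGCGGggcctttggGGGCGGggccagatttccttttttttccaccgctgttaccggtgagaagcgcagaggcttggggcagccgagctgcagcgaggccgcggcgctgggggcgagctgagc
Pdgfra: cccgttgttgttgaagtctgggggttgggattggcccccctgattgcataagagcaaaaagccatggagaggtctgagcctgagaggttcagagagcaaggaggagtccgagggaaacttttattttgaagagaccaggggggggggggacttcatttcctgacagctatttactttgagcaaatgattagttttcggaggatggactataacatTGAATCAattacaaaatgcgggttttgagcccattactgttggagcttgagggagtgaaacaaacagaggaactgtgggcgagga
Vegfd: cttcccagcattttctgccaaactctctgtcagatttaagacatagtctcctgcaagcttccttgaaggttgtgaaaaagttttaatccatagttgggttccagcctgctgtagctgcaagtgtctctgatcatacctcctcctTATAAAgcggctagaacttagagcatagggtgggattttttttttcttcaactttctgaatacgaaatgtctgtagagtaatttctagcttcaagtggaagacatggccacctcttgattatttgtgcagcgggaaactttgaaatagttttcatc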

How the data were processed

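RNA was sequenced from 4 Lv-Ctrl samples and 4 samples labelled Lv-Piezo1, all AFCs under CMS. The study's methods describe mapping to the rat genome with HISAT2, transcript reconstruction with StringTie and FPKM, while the submitted notes name the mouse build mm10, although the identifiers are those of rat genes. The authors deposited TPM rounded to 2 decimals, and the annotation and the step to TPM are not stated. TPM keeps no counts, so precision rests on the spread of 4 samples.

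From the deposited TPM, log2(TPM + 1) of the 13103 genes with a mean of at least 1 TPM was compared with limma 3.58.1 in R 4.3.3 (empirical Bayes with a trend, Benjamini-Hochberg adjustment over all tested genes, called below 0.05 with a log2 fold change of at least 1). The fit was tested on simulated data. The 10 genes and the lists of pathway and marker genes were chosen with earlier results of these data known. The calls and limma p values of genes in those lists are therefore a description too, not an independent test. Named genes are the 10, Piezo1, Piezo2, the VEGF receptor list, and in each other pathway list up to 3 called rises and 3 called falls by size with the 2 most abundant genes. In each marker list they are the called genes and the most abundant gene, with other markers named where near 0 or where said to be chosen after their values were seen, and for Pdgfra, Vegfa and Vegfd they are the 3 genes nearest in pattern among those of at least 5 TPM. Symbols without a match in the table were left out. Each comparison was repeated with moderation that ignored the trend, with the replicate number as a block, without the fold change threshold, without each sample in turn, with median-ratio scaling or quantile normalization, with 0.1 as pseudocount, and with no minimum TPM or a minimum mean of 5.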

Additional observations from a re-analysis of the deposited data

Results flagged for a closer look

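Within groups of 4 samples, the gap between the lowest or highest sample and its nearest neighbour, divided by the range of the group, was compared with Dixon's critical value. Of 155 groups checked, 14 exceeded it. Chance gives about 1 in 20 for independent and normally distributed values. The genes share the same samples, and where the other samples of a group are equal, as near 0, the ratio is 1 at any distance. The count was therefore not compared with chance. In Lv-Ctrl replicate 3, Flt4 was low at 10.1 TPM against 11.9 to 12.3 TPM in the other samples of its group, Dcn at 1352 TPM against 1483 to 1498 TPM, Sema7a at 11.8 TPM against 14.6 to 14.8 TPM, and Piezo2 at 0.2 TPM against 0.47 to 0.5 TPM. Ckm was high in Lv-Ctrl replicate 2, at 13.99 TPM against 1.31 to 1.93 TPM, and Junb in Lv-Ctrl replicate 1, at 149 TPM against 125 to 127 TPM. In the samples labelled Lv-Piezo1, Acta2 was low in replicate 4 at 1284 TPM against 1359 to 1369 TPM, Ccn2 in replicate 2 at 4468 TPM against 4655 to 4661 TPM, and Ier3 in replicate 3 at 1283 TPM against 1294 to 1296 TPM. Among values below 0.1 TPM, a single sample stood above others that were equal to each other. These were Pdgfb in replicate 1 labelled Lv-Piezo1 at 0.05 TPM, Cdh5 in replicate 2 at 0.06 TPM, Tnmd in replicate 4 at 0.08 TPM and Piezo2 in replicate 1 at 0.07 TPM, all of that group, and Kdr in Lv-Ctrl replicate 1 at 0.01 TPM.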

How the results depend on the processing

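With median-ratio scaling Vegfa was at 0.96, below the fold change threshold. Pdgfra, Vegfd and Vegfa were chosen on this contrast, so their range is a description. Over the alternatives the log2 fold change ranged from -1.52 to -1.32 for Pdgfra, from -2.98 to -2.57 for Vegfd and from 0.96 to 1.16 for Vegfa. Without the fold change threshold, 7626 genes (58.2%) and 70 of the 107 pathway genes passed, and the 9 tested PDGF and VEGF genes lay past that limit too, from which nothing is read. With a mean of at least 5 TPM, 628 genes were called, of fewer tested, and with a pseudocount of 0.1, 1438 genes, against 1005 in the main fit. Of the called genes, 64.1% were higher without further scaling, 52.3% with median-ratio scaling and 48.8% with quantile normalization.

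Signs turned as follows, and the cause was not tested. Median-ratio scaling gave log2 fold changes of -0.013 for Pdgfrb, -0.053 for Akt1, -0.094 for Egfl7, -0.074 for Errfi1, -0.066 for Ldha, -0.057 for Mapk3, -0.15 for Junb and -0.10 for Nrp2, and quantile normalization gave -0.058 for Egfl7, -0.039 for Junb and -0.0070 for Nrp2. Leaving out 1 sample at a time gave -0.016 to 0.13 for Egfl7, -0.013 to 0.098 for Nrp2, -0.017 to 0.069 for Junb and -0.80 to 0.098 for Ckm. Junb was negative without Lv-Ctrl replicate 2, 3 or 4 or replicate 2 or 4 labelled Lv-Piezo1. Egfl7 was negative without Lv-Ctrl replicate 1 and Nrp2 without Lv-Ctrl replicate 3, and Ckm was positive without Lv-Ctrl replicate 2. The log2 fold change of Comp was 0.93 after quantile normalization, below the threshold, and 1.85 with a pseudocount of 0.1. That pseudocount gave larger values for other low genes too, 4.32 for Esam, 4.04 for Cd68, 3.37 for Pgf, 3.34 for Egln3, 1.69 for Flt1, 1.52 for Egr2 and -2.13 for Cilp.

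With the replicate number as a replicate block, 1004 genes were called against 1005 without it, 11 pathway genes outside the PDGF and VEGF genes among them. Of the PDGF and VEGF genes, which were chosen on this contrast, 3 lay past both limits with the block, from which nothing is read. Residuals of samples with the same number correlated at -0.06 to -0.01, and no sample correlated best with its own number, so the fit used no block. The labels do not say whether equal numbers share an isolation, and the study's methods count the cells of an isolation, under their different treatments, as 1 repeat. TPM gives no depth, so values near 0 carry no detection limit.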

Other observations

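Markers of macrophages, lymphatic endothelium and platelets were mostly near 0. Of 10 macrophage markers, 9 had a mean below 1 TPM and 5 were listed at 0 in every sample, Adgre1, Cd163, C1qa, C1qb and Tyrobp. Their sum was 2.3, 0.83, 1.37 and 0.64 TPM in Lv-Ctrl replicates 1 to 4 and 13.9, 12.1, 13.01 and 11.7 TPM in replicates 1 to 4 labelled Lv-Piezo1, with Cd68, a lysosomal protein, the most abundant. Cd68 went from 0.955 ± 0.899 to 12.3 ± 0.901 TPM, so it reached the mean of 1 TPM through the group where it was higher, and no p is given. Its log2 fold change was 2.88 ± 0.28, and 4.04 with a pseudocount of 0.1. Of 5 lymphatic markers, 0 reached a mean of 1 TPM, and their sum was at most 1.0 TPM in any sample, with Reln the most abundant and Mmrn1 and Ccl21 listed at 0. Of 6 platelet markers, Itga2b alone was tested and was not called, with a sum of at most 2.0 TPM, and Pf4 and Ppbp were listed at 0.

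Of 8 nucleus pulposus markers, 2 were tested, and Cd24 was called higher, from 3.79 ± 0.207 to 21.9 ± 1.91 TPM, with a log2 fold change of 2.25 ± 0.07 and a limma adjusted p = 2.0e-08, while Tbxt, Noto and Shh were listed at 0. Of 8 skeletal muscle markers, 2 were tested, Des was called higher, from 13.1 ± 1.06 to 44.2 ± 1.4 TPM, with a log2 fold change of 1.68 ± 0.06 and a limma adjusted p = 3.6e-08, and Myod1, Myog, Myf5 and Pax7 were listed at 0. The other tested one, Ckm, chosen after its values were seen, measured 1.93, 14.0, 1.38 and 1.31 TPM in the Lv-Ctrl replicates and 2.18, 1.65, 1.89 and 1.19 TPM in those labelled Lv-Piezo1. Its log2 fold change of -0.54 ± 0.55 was not called (limma adjusted p = 0.42) and was 0.10 without Lv-Ctrl replicate 2. Of the 9 tested annulus fibrosus markers, with a median log2 fold change of 0.57, Cilp was called lower, from 6.65 ± 0.963 to 1.45 ± 0.229 TPM, with a log2 fold change of -1.64 ± 0.12 and a limma adjusted p = 3.1e-06. Comp, also among the 9, went from 0.738 ± 0.216 to 2.86 ± 0.221 TPM and like Cd68 reached the mean of 1 TPM through the higher group, so no p is given. Its log2 fold change was 1.16 ± 0.12, 1.85 with a pseudocount of 0.1 and 0.93 with quantile normalization.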
